A study of Homo sapiens with 6 samples.

Results

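This report describes 44 human genes whose products build the kinetochore, run the spindle checkpoint or organise the mitotic spindle, and how their transcripts differed between metformin-treated and vehicle-treated CAL27 cells. CAL27 is an established epithelial line derived from a tongue squamous carcinoma. The metformin cultures received 30 mM of this biguanide diabetes drug for 48 h, and the controls received phosphate-buffered saline (PBS) for the same time. Both came from the same line in the same high-glucose medium with serum, and each group held 3 libraries of polyadenylated RNA. Only 1 cell line and 1 dose were included, so lower doses were not measured. The genes were chosen by name, as known kinetochore, checkpoint and spindle factors. The rule used no measured value, but the list was drawn up with earlier results of these data known. All 44 were found among the 58243 listed genes, each under 1 Ensembl identifier. All 44 also reached the mean of 1 FPKM over the 6 libraries that was required for testing, as did 13437 genes in all. FPKM is a fragment count scaled to transcript length and library size.

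The kinetochore is the protein assembly on each centromere that binds spindle microtubules when chromosomes segregate. Its inner layer sits on chromatin that carries the histone variant CENPA, its outer layer grips the microtubules, and a corona of motor and checkpoint proteins covers it until attachment is complete. Unattached kinetochores keep the spindle checkpoint on, which holds back anaphase. Most of these transcripts are known to peak in G2 and mitosis, so in a bulk culture their level depends on how many cells are in those phases.

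Metformin-treated cells had less of most of these transcripts. Of the 44 genes, 36 were lower with metformin, 0 were higher and 8 did not pass the test (limma, two-sided, Benjamini-Hochberg adjusted p below 0.05 over all genes tested). Across all tested genes, 25.2% were called lower, 31.0% higher and 56.2% in either direction. On the log2(FPKM + 1) scale, 23 of the 44 fell by 1 or more, against 4.74% of all tested genes. Their median log2 change was -1.05, against 0.06 over all tested genes, and the changes ran from -2.41 for DLGAP5 to 0.03 for ZWILCH. By the ratio of group means, 12 fell at least 3-fold, 13 between 2-fold and 3-fold, and 11 of the called genes less than 2-fold. In 37 of the 44 every metformin library lay below every PBS library, which held for 28.7% of all tested genes. Summed over the 44 genes, the level was 332, 323 and 323 FPKM in the metformin libraries, against 734, 750 and 761 FPKM in the PBS libraries. No library of one group came near the other in this sum.

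**Figure D1:**
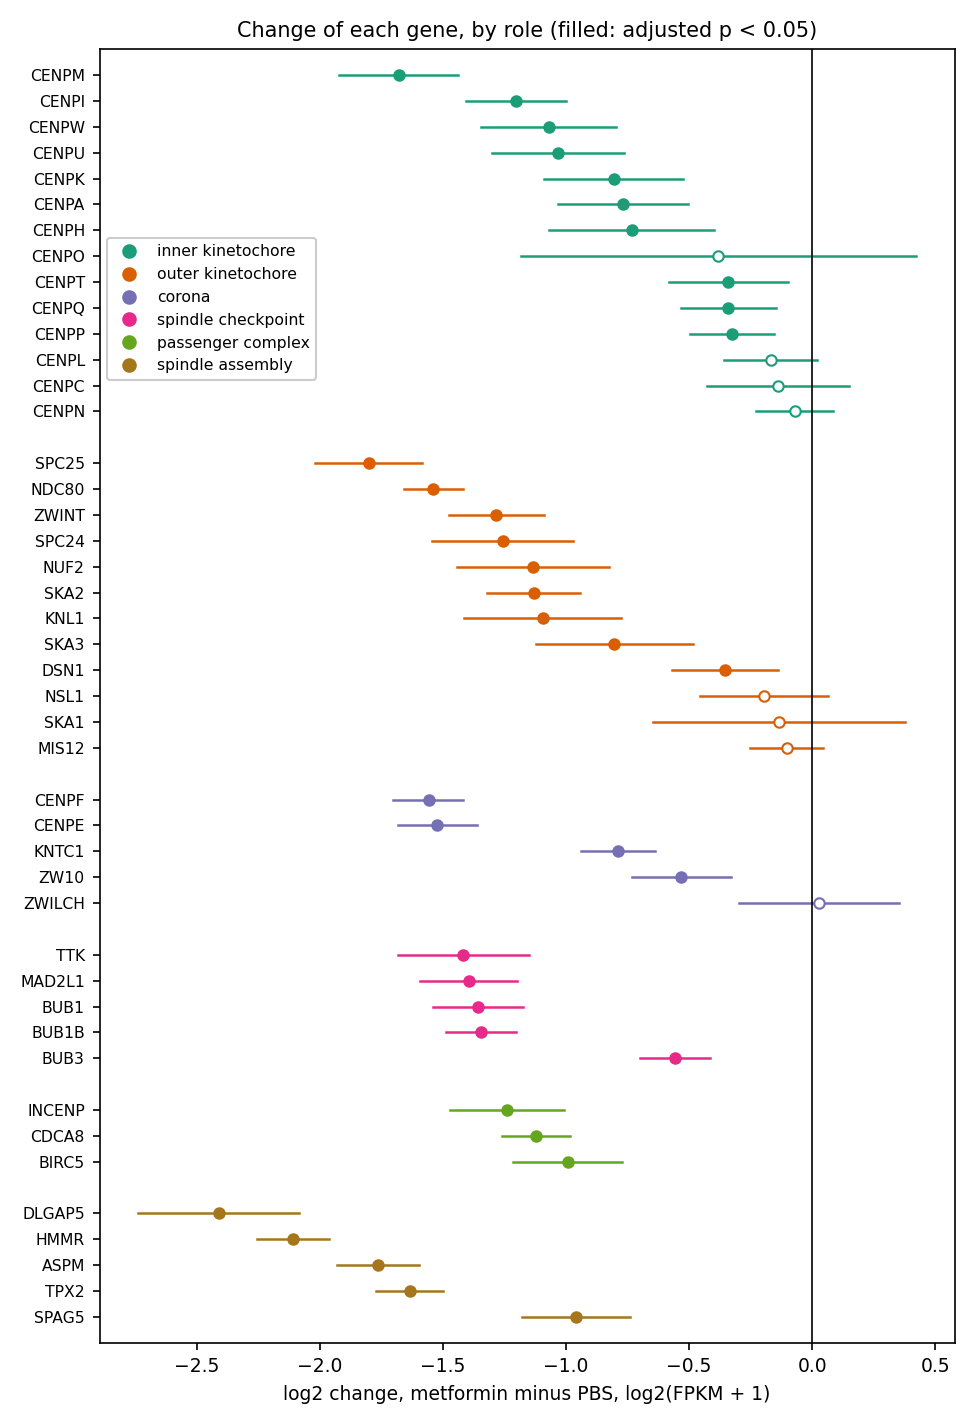
Log2 change of each of the 44 genes, as log2(FPKM + 1) with metformin minus that with PBS, grouped by role. Points are limma estimates with 95% confidence intervals over 3 libraries a group, filled where the adjusted p was below 0.05. The 36 filled points all lie left of 0 and the 8 open ones have intervals that reach 0.

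Several measurements bear on how these falls are read. In these bulk libraries, fewer cells in mitosis and less RNA per mitotic cell cannot be told apart. A list of 17 proliferation and S phase markers, among them MKI67, PCNA and the MCM helicase genes, was lower in 17 of 17 with a median log2 change of -1.44. It also holds genes of G2 and mitosis (TOP2A, CCNA2, CCNB1, CCNB2, CDK1 and PLK1), which changed by -2.27 to -1.44. PCNA and the MCM genes changed by -2.41 to -0.93. The smallest falls were those of CDC6 (-0.48), CDT1 (-0.65) and CCNE2 (-0.81). The summed level of that list was 317 to 331 FPKM with metformin and 876 to 917 FPKM with PBS, and its part in the falls of the kinetochore genes was not tested. All 8 epithelial markers were expressed in both groups, 6 lower and 2 higher with metformin. Their summed level was 445 to 467 FPKM with metformin and 1024 to 1085 FPKM with PBS, with EPCAM and CDH1 the 2 higher ones. EPCAM had 128 to 132 FPKM with metformin and 99.4 to 108 FPKM with PBS. The basal keratin KRT14 averaged 12.9 FPKM with metformin and 246 FPKM with PBS, a 19.1-fold fall, and KRT5 fell 6.77-fold and KRT6A 2.31-fold. By these ratios KRT14 and KRT5 fell more than any of the 44 genes. Of 8 housekeeping genes, 4 were also lower, with GAPDH down 2.65-fold, HPRT1 2.03-fold, ACTB 1.97-fold and PPIA 1.82-fold, and 4 did not pass the test (TBP, B2M, RPLP0 and POLR2A). The housekeeping list summed to 1332 to 1471 FPKM with metformin and 2623 to 2758 FPKM with PBS, and its part in the falls of the 44 genes was not tested. Most markers of other cell types were low. PTPRC, PECAM1, KDR, DCN and PDGFRA were at most 0.212 FPKM in every library, and LYZ reached 0.993 FPKM in metformin replicate 3. CDH5, CD14, CD68 and COL1A1 passed the filter. CDH5 averaged 2.03 FPKM with metformin and 6.17 FPKM with PBS, and CD14 0.943 FPKM with metformin and 3.71 FPKM with PBS. CD68 averaged 3.33 FPKM with metformin and 2.15 FPKM with PBS, and COL1A1 2.38 FPKM with metformin and 1.36 FPKM with PBS. The whole endothelial list summed to 2.01 to 2.32 FPKM with metformin and 5.93 to 6.87 FPKM with PBS, the leukocyte list to 4.28 to 6.19 FPKM with metformin and 5.69 to 6.74 FPKM with PBS, and the fibroblast list to 2.49 to 2.74 FPKM with metformin and 1.54 to 2.34 FPKM with PBS. Their part in the results was not tested. Sequencing depth is unknown, since the files give no counts and only 26.5% to 30.3% of low values lay within 0.05 of a whole number of fragment steps. No label states separate cultures for the 3 libraries of a group, so p-values cover only their spread, possibly a technical one.

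The median log2 change was -1.76 for the 5 spindle assembly genes, -1.36 for the 5 checkpoint genes, -1.12 for the 3 subunits of the chromosomal passenger complex and -1.11 for the 12 outer kinetochore genes. It was -0.79 for the 5 corona genes and -0.56 for the 14 inner kinetochore genes. All genes of the first 3 of these classes were called lower, as were 9 of 12 in the outer kinetochore, 4 of 5 in the corona and 10 of 14 in the inner kinetochore. The 16 genes named CENP, which add the corona genes CENPE and CENPF to the inner class, had a median of -0.75 with 12 lower. The differences between classes were not tested.

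**Figure D2:**
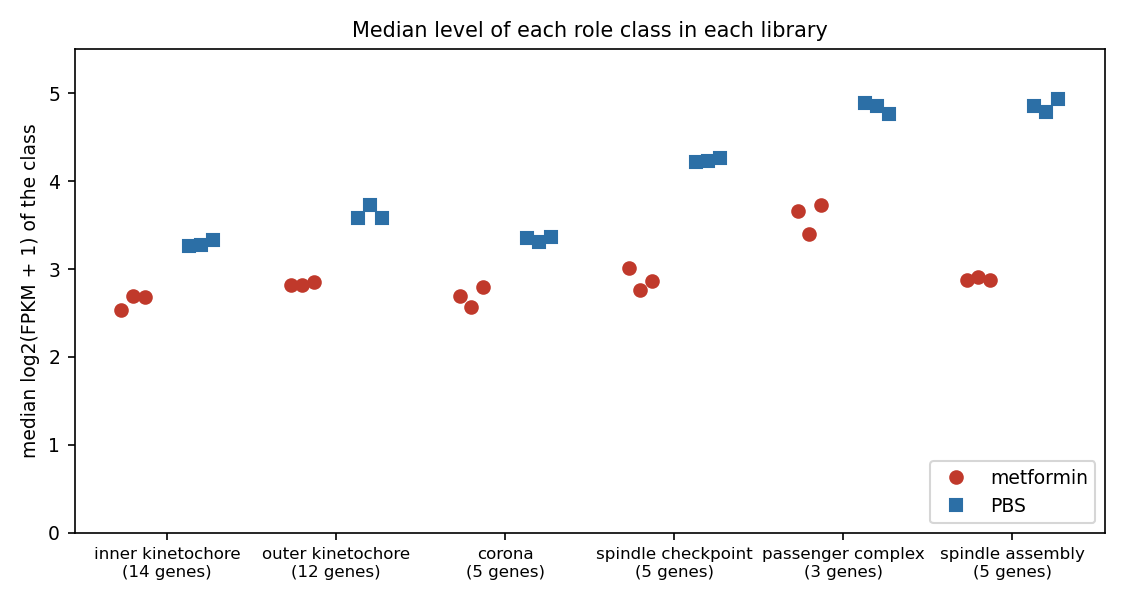
Median log2(FPKM + 1) of each role class in each library, metformin as red circles and PBS as blue squares, 3 libraries a group. In every class the 3 metformin libraries lie below the 3 PBS libraries, with the widest gap in the spindle assembly class (2.87 to 2.91 with metformin and 4.79 to 4.94 with PBS).

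Spindle assembly factors, which nucleate and focus spindle microtubules, held the 2 largest falls of the 44. DLGAP5 (ENSG00000126787.12, chromosome 14, 55148112 to 55191678 in GRCh38), also called HURP, stabilises the microtubule fibres that reach kinetochores. It had 4.59, 3.47 and 5.53 FPKM in the metformin libraries, against 28.0, 26.6 and 29.7 FPKM in the PBS libraries. This 6.20-fold fall was a log2 change of -2.41 (limma SE 0.14, adjusted p = 2.31e-05). HMMR, a microtubule-binding hyaluronan receptor needed for spindle pole integrity, had 6.34, 6.54 and 6.32 FPKM with metformin, against 29.1, 32.5 and 31.4 FPKM with PBS. Its values were nearly equal among the treated libraries and fell 4.84-fold. ASPM, which focuses spindle poles, had 3.73, 3.74 and 3.77 FPKM with metformin, against 15.2, 14.1 and 16.2 FPKM with PBS, a log2 change of -1.76 (SE 0.07). TPX2, which activates the kinase AURKA on the spindle, was the most abundant of the 44 transcripts in both groups, with 28.9 ± 1.53 FPKM in metformin-treated and 91.7 ± 3.47 FPKM in PBS-treated cells (SD, n = 3 each). SPAG5, the kinetochore-fibre protein astrin, fell 2.02-fold to 12.1 ± 1.39 FPKM, against 24.3 ± 1.46 FPKM with PBS. SPAG5 shares 485 of its 5472 exonic bases with AC005726.1 on the same strand, which averaged 5.61 FPKM with metformin and 1.97 FPKM with PBS, so its fold is uncertain.

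All 5 checkpoint genes fell, BUB3 the least. TTK (ENSG00000112742.9, chromosome 6, 80003887 to 80042527), the kinase MPS1 that starts checkpoint signalling at kinetochores, had 4.05, 3.79 and 4.26 FPKM in the metformin libraries, against 10.97, 11.8 and 14.8 FPKM in the PBS libraries. It fell 3.10-fold, a log2 change of -1.42 (limma SE 0.11, adjusted p = 8.53e-05). MAD2L1, which encodes the MAD2 protein that inhibits the anaphase activator CDC20, had 2.57, 2.89 and 3.09 FPKM with metformin, against 9.77, 8.80 and 8.80 FPKM with PBS. No value of one group approached the other, and the fall was 3.20-fold. BUB1, a kinase that recruits checkpoint proteins, had 7.06, 5.78 and 6.29 FPKM with metformin, against 17.6, 17.8 and 18.2 FPKM with PBS. BUB1B, which encodes the BUBR1 subunit of the mitotic checkpoint complex, fell 2.75-fold, close to the 2.80-fold of BUB1. BUB3 binds both proteins and also has roles outside mitosis. It fell 1.498-fold to 16.3 ± 0.859 FPKM, against 24.4 ± 0.743 FPKM with PBS, and its log2 change of -0.56 had a 95% interval of -0.70 to -0.41. The level of BUB3 relative to BUB1 was thus 2.44, 2.80 and 2.46 in the metformin libraries, against 1.35, 1.36 and 1.39 in the PBS libraries.

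The chromosomal passenger complex carries the kinase AURKB to centromeres and corrects wrong attachments. INCENP (ENSG00000149503.12, chromosome 11, 62123973 to 62153163), its scaffold, had 11.7, 9.51 and 12.3 FPKM in the metformin libraries, against 28.6, 27.8 and 26.2 FPKM in the PBS libraries. CDCA8, which encodes borealin, had 14.96, 13.4 and 14.8 FPKM with metformin, against 32.4, 32.2 and 32.7 FPKM with PBS. BIRC5, which encodes survivin, had 7.09, 6.08 and 5.65 FPKM with metformin, against 12.7, 13.2 and 14.5 FPKM with PBS. The 3 subunits lay apart between groups in every library and fell by similar ratios, 2.14-fold to 2.47-fold. The kinase partner AURKB, which is not among the 44, averaged 6.02 FPKM with metformin and 13.6 FPKM with PBS, a 2.25-fold fall.

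In the outer kinetochore the microtubule-binding NDC80 complex fell in all 4 subunits, by 2.45-fold to 4.15-fold. Of the 3 MIS12 complex genes among the 44, only DSN1 passed the test. SPC25 (ENSG00000152253.8, chromosome 2, 168834132 to 168913371), an NDC80 complex subunit that faces the chromosome, had 3.88, 4.09 and 3.35 FPKM in the metformin libraries, against 14.3, 15.9 and 16.8 FPKM in the PBS libraries. This was a 4.15-fold fall, with a log2 change of -1.80 (limma SE 0.09, adjusted p = 1.50e-05). NDC80 itself, which contacts the microtubule, had 9.53, 9.65 and 9.20 FPKM with metformin, against 29.1, 29.5 and 29.6 FPKM with PBS. Its replicates differed little, and its SE of 0.05 was the smallest of the 44. NUF2 and SPC24, the remaining subunits, fell 2.45-fold and 2.75-fold. ZWINT, a partner of KNL1, had 19.1, 17.6 and 20.4 FPKM with metformin, against 44.3, 52.0 and 47.0 FPKM with PBS. KNL1, the scaffold that docks checkpoint proteins, fell 2.55-fold to 2.60 ± 0.615 FPKM, against 6.61 ± 0.400 FPKM with PBS, so both partners fell by nearly the same ratio.

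Of the MIS12 complex, DSN1 fell 1.30-fold (log2 change -0.35, SE 0.09, limma adjusted p = 0.0138), and MIS12 and NSL1 did not pass the test. MIS12 had 9.32, 9.16 and 9.89 FPKM in the metformin libraries, against 10.6, 9.82 and 10.3 FPKM in the PBS libraries. The groups overlapped, and its 95% interval of -0.25 to 0.05 leaves out falls as large as those of the NDC80 complex. NSL1 had 7.02, 7.03 and 5.72 FPKM with metformin, against 6.73, 8.44 and 7.94 FPKM with PBS (log2 change -0.20, 95% interval -0.46 to 0.06). The MIS12 level relative to NDC80 was 0.978, 0.9498 and 1.08 in the metformin libraries, against 0.364, 0.333 and 0.348 in the PBS libraries. This pair and BUB3 with BUB1 were chosen after their values were seen and were not tested as ratios.

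The SKA complex, which keeps kinetochores on shrinking microtubules, was mixed. SKA2 fell 2.36-fold to 7.15 ± 0.559 FPKM, against 16.9 ± 1.13 FPKM with PBS, and SKA3 fell 1.85-fold to 6.04 ± 1.39 FPKM, against 11.1 ± 0.201 FPKM with PBS. SKA1 had 1.68, 3.53 and 3.14 FPKM with metformin, against 2.49, 3.10 and 3.66 FPKM with PBS. Its groups overlapped and its interval was wide, -0.65 to 0.38 around -0.13. Without metformin replicate 1, the lowest of its 6 values, the change was 0.10 (adjusted p = 0.611), so SKA1 carries no direction.

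**Figure D3:**
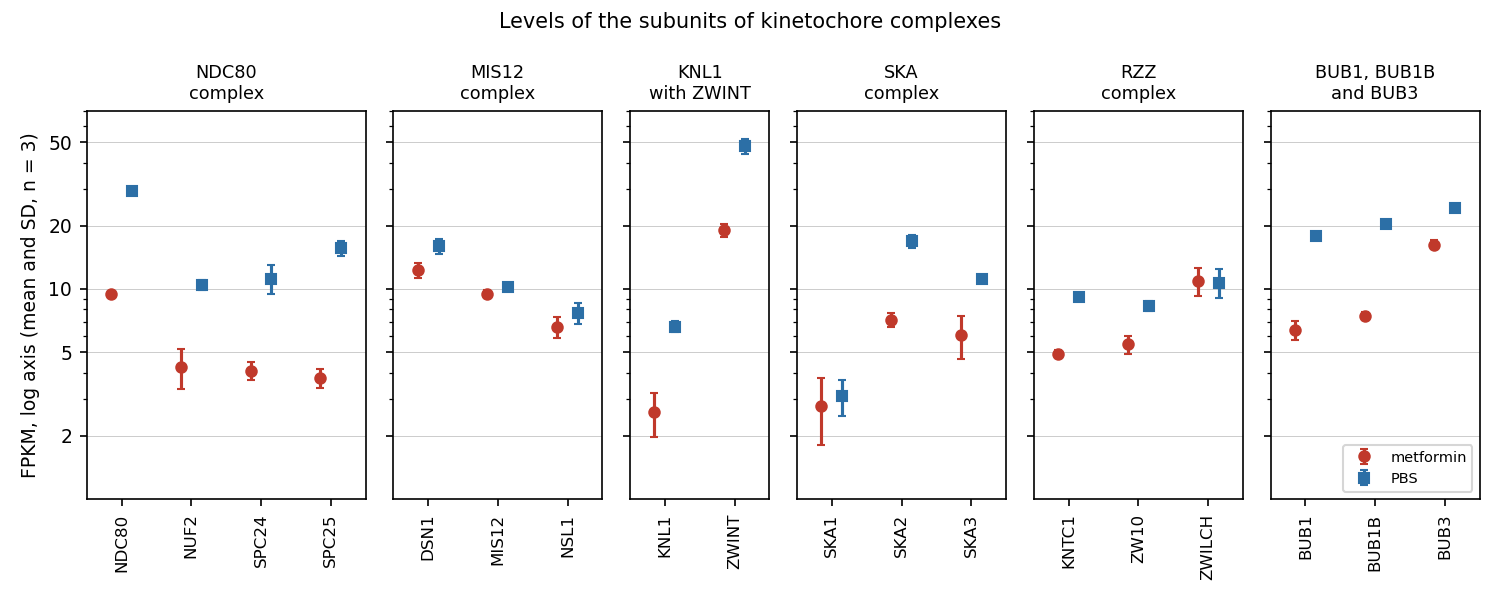
Mean FPKM with SD (n = 3) of the subunits of kinetochore and checkpoint complexes, metformin as red circles left of PBS as blue squares, on a log axis. The 4 subunits of the NDC80 complex lie 2.45-fold to 4.15-fold lower with metformin. Means of the 3 MIS12 complex genes shown lie 1.08-fold to 1.30-fold lower, and of these only DSN1 passed the test. PMF1 of the MIS12 complex, which fell 1.72-fold, is not shown.

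In the corona, CENPE and CENPF fell most. CENPF (ENSG00000117724.12, chromosome 1, 214603195 to 214664588), a large coiled-coil protein that helps recruit dynein, had 11.3, 11.1 and 11.2 FPKM in the metformin libraries, against 35.9, 32.7 and 36.4 FPKM in the PBS libraries. It fell 3.13-fold, a log2 change of -1.56 (limma SE 0.06, adjusted p = 5.43e-06). CENPE, the kinesin that moves chromosomes to the spindle equator, had 2.13, 2.19 and 2.00 FPKM with metformin, against 7.88, 7.79 and 8.15 FPKM with PBS, a 3.76-fold fall. The RZZ complex recruits dynein and MAD1 to unattached kinetochores. KNTC1, its ROD subunit, had 4.84, 4.71 and 5.14 FPKM with metformin, against 9.32, 8.94 and 9.32 FPKM with PBS. ZW10, which also works in membrane traffic, fell 1.53-fold to 5.45 ± 0.528 FPKM, against 8.32 ± 0.475 FPKM with PBS. ZWILCH had 12.7, 10.6 and 9.49 FPKM with metformin, against 9.20, 12.5 and 10.4 FPKM with PBS. Its groups overlapped throughout, and the change of 0.03 (95% interval -0.30 to 0.35) turned negative under other scalings. ZWILCH shares 158 of its 4849 exonic bases with RPL4 on the other strand, an abundant ribosomal protein gene that averaged 255 FPKM with metformin and 181 FPKM with PBS. Whether the counting used strand is not stated, and the part of RPL4 in the ZWILCH values was not tested.

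The inner kinetochore held 4 falls of at least 1 on the log2 scale and 4 genes that did not pass the test. CENPM (ENSG00000100162.14, chromosome 22, 41938721 to 41947164), a subunit of the CENP-HIKM group that links CENPA chromatin to the outer layer, had 5.95, 5.504 and 5.48 FPKM in the metformin libraries, against 18.0, 19.8 and 23.5 FPKM in the PBS libraries. This 3.62-fold fall had a log2 change of -1.68 (limma SE 0.10, adjusted p = 2.85e-05). CENPI, another subunit of that group, had 1.13, 1.15 and 1.30 FPKM with metformin, against 3.89, 3.92 and 4.35 FPKM with PBS, and fell 3.39-fold from a low level. CENPW, a histone-fold partner of CENPT, had 14.3, 17.0 and 12.1 FPKM with metformin, against 32.7, 30.6 and 30.4 FPKM with PBS. CENPU fell 2.19-fold, and CENPK, CENPH and CENPA fell 1.95-fold, 1.78-fold and 1.83-fold. CENPA, the histone H3 variant that marks centromeres, had 5.89 ± 0.480 FPKM with metformin and 10.8 ± 1.52 FPKM with PBS. It shares 138 of its 1983 exonic bases on the same strand with SLC35F6, which averaged 32.9 FPKM with metformin and 11.5 FPKM with PBS, so the CENPA fold is uncertain.

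CENPQ and CENPP, which sit in the CENP-OPQUR group with CENPU, fell 1.30-fold and 1.33-fold. CENPT, which binds the NDC80 complex directly, had 3.82, 3.92 and 4.599 FPKM in the metformin libraries, against 6.09, 4.85 and 5.496 FPKM in the PBS libraries. Its call (log2 change -0.34, limma adjusted p = 0.0260) was lost without metformin replicate 1 or 2 or PBS replicate 1 or 3, with adjusted p of 0.0803, 0.0750, 0.0797 and 0.0653. It was kept without metformin replicate 3 or PBS replicate 2. CENPP shares 3719 of its 9794 exonic bases with IPPK on the other strand, and 153 with NOL8. IPPK averaged 7.23 FPKM with metformin and 8.88 FPKM with PBS. CENPT shares 380 of its 5539 exonic bases with THAP11 and 110 with NUTF2, also on the other strand. Strand use in counting is not stated, so the CENPP fold is uncertain.

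Besides these, 4 inner kinetochore genes did not pass the test. CENPN, which reads the CENPA nucleosome, had 10.7, 11.3 and 10.8 FPKM in the metformin libraries, against 12.2, 11.7 and 10.8 FPKM in the PBS libraries. The groups overlapped and its 95% interval of -0.23 to 0.08 was narrow. CENPL, its partner, had 3.32, 3.91 and 3.52 FPKM with metformin, against 3.98, 4.26 and 4.20 FPKM with PBS. Its groups lay apart by a small margin, and its adjusted p of 0.111 became 0.0444 with median-of-ratios scaling and 0.0334 with quantile scaling. CENPC, which connects CENPA chromatin with the MIS12 complex, was the least abundant of the 44, with 1.249, 1.42 and 0.912 FPKM with metformin, against 1.53, 1.31 and 1.37 FPKM with PBS. CENPO had 3.21, 6.75 and 7.04 FPKM with metformin, against 9.04, 4.47 and 9.57 FPKM with PBS. In each group 1 library of CENPO lay far below the others, so its interval of -1.18 to 0.42 allows a large fall or a small rise (limma adjusted p = 0.370). CENPO shares 1488 of its 5518 exonic bases with ADCY3 on the other strand, which averaged 17.0 FPKM with metformin and 17.4 FPKM with PBS.

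**Figure D4:**
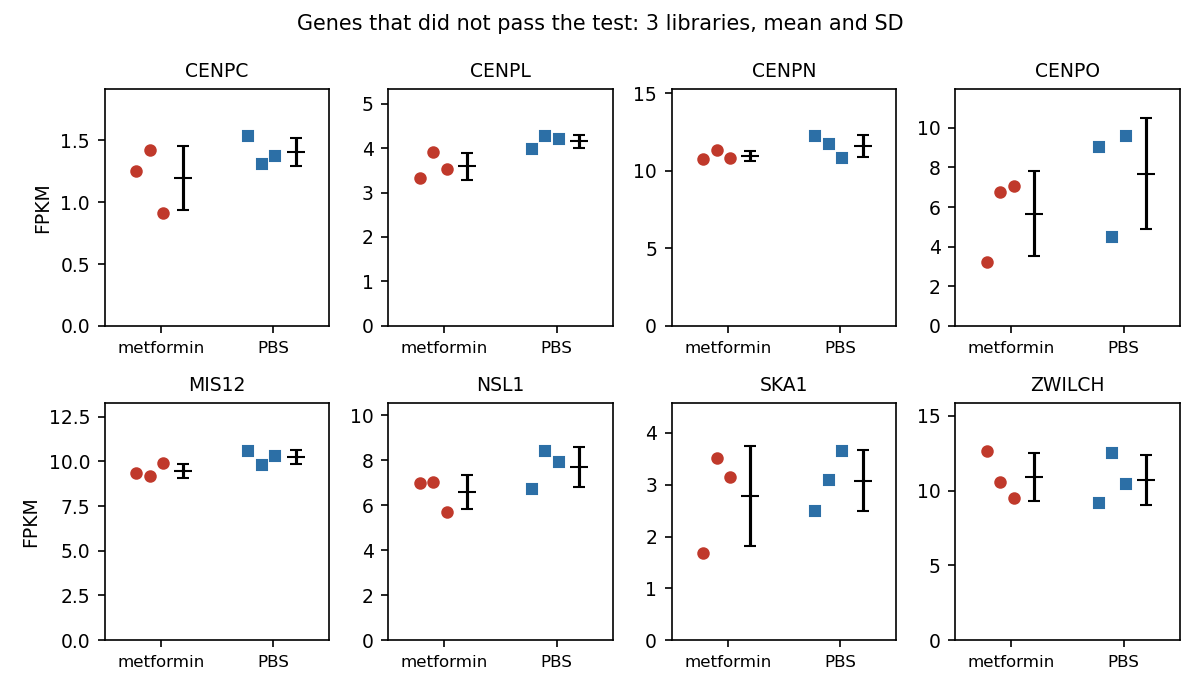
FPKM in each library of the 8 genes that did not pass the test, metformin left of PBS, with the mean and SD of 3 libraries beside the points. The groups overlap in 7 of the 8, and CENPO has the widest spread (SD 2.13 with metformin and 2.80 with PBS), followed by ZWILCH (1.62 with metformin and 1.69 with PBS).

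Among the 44 genes, more of the abundant ones were called lower, as over all tested genes. Of the 29 genes with a PBS mean of at least 10 FPKM, 26 were called lower, against 42.4% of the 4253 tested genes at that level. Of the 15 below it 10 were, against 17.2% of 9184 tested genes. Spearman's rho between the PBS mean and the log2 change was -0.60 across the 44 genes and -0.33 across all tested genes, given as a description since genes share the same libraries. The added pseudocount of 1 FPKM shrinks the changes of low genes, and PBS values enter both measures.

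Upstream sequence was compared because 36 of the 44 genes fell. Genes of G2 and mitosis are known to carry a cell cycle genes homology region (CHR), bound by the DREAM and MuvB complexes, often near CCAAT boxes bound by NF-Y. Genes of the G1 to S transition more often carry E2F sites. RefSeq promoters (GRCh38.p14) were found for 35 of the 44 genes, and the 250 bases before the start were searched on both strands. CHR was read as the letters TTTGAA, with TTCGAA as the permitted variant. The NF-Y box was read as CCAAT. An E2F match was either of 2 strings, the first of which is TTCCCGC while the other is spelled TTGGCGC. For genes with more than 1 entry the first was used, and matches may overlap each other, within and between motifs. Below are the stretches of the 5 genes with the largest falls, by fold or by log2 change, among those where at most 30 of the 250 bases lie in annotated exons of tested genes, chosen after the values were seen. They lie at chr1:197146670-197146919 on the minus strand (ASPM), chrX:101100808-101101057 on the plus strand (CENPI), chr1:214602945-214603194 on the plus strand (CENPF), chr10:56361260-56361509 on the minus strand (ZWINT) and chr19:11155783-11156032 on the minus strand (SPC24). The CENPI stretch lies inside the annotated gene, which begins at 101098218 on chromosome X, so it need not be the main promoter of CENPI. Capitals mark matches, read on either strand, so CCAAT also appears as ATTGG, CHR as TTCAAA and the E2F match as its reverse complement.
ASPM: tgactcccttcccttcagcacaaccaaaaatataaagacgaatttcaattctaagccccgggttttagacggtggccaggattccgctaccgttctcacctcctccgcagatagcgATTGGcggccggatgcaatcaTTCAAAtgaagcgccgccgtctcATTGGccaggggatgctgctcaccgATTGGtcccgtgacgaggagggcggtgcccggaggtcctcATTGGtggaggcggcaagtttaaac
CENPI: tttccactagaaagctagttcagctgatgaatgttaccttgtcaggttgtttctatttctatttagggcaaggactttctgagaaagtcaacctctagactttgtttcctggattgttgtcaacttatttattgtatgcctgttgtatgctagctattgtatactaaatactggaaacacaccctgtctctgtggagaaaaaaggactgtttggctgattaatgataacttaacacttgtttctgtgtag
CENPF: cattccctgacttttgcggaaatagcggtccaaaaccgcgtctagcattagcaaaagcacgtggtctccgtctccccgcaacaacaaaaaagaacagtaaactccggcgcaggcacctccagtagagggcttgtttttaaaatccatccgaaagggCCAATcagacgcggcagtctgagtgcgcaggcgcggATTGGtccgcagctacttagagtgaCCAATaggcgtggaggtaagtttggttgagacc
ZWINT: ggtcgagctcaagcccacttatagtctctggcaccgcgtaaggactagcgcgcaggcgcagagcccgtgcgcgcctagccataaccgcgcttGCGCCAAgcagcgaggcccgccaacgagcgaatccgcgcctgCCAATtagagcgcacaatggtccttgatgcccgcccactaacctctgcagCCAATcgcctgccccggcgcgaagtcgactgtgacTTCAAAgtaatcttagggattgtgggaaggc
SPC24: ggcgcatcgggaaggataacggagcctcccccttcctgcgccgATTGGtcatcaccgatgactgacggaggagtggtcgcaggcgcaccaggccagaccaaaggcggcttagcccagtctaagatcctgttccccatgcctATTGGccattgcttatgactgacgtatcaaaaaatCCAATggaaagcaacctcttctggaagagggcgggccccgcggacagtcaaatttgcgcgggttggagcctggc

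ASPM held 4 CCAAT matches and 1 CHR match, and ZWINT 2 CCAAT matches, 1 CHR and 1 E2F match. CENPF and SPC24 held 3 CCAAT matches each and none of the CHR letters in this window. A CHR match was found in 10 of the 28 promoters of genes called lower (35.7%), in 1 of the 7 of genes not called, and in 11.9% of 15842 promoters of protein-coding genes. The 1 match among genes not called was in CENPC. CCAAT was found in 18 of the 28 (64.3%), in 3 of the 7 and in 34.5% of protein-coding promoters. Both motifs together were found in 9 of the 28 (32.1%), in 1 of the 7 and in 4.63% of protein-coding promoters. E2F matches were found in 4 of the 28 (14.3%), in 3 of the 7 (MIS12, CENPN and SKA1) and in 10.6% of protein-coding promoters. None of these motifs was in the windows of 9 of the 28 genes called lower, which were NDC80, CENPE, CENPI, NUF2, SPAG5, SKA3, DSN1, CENPT and CENPP, nor in those of CENPO, NSL1 and ZWILCH among the 7 not called. The windows of SPAG5, CENPO, ZWILCH, HMMR and CENPN lay wholly (250 of 250 bases) in annotated exons of the same gene. That of CENPP lay wholly in exons of NOL8, and 203 bases of that of NDC80 lay in exons of METTL4. The limit of 30 exonic bases was applied only to the 5 printed stretches. These shares describe letters in a window, and were not tested.

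**Figure D5:**
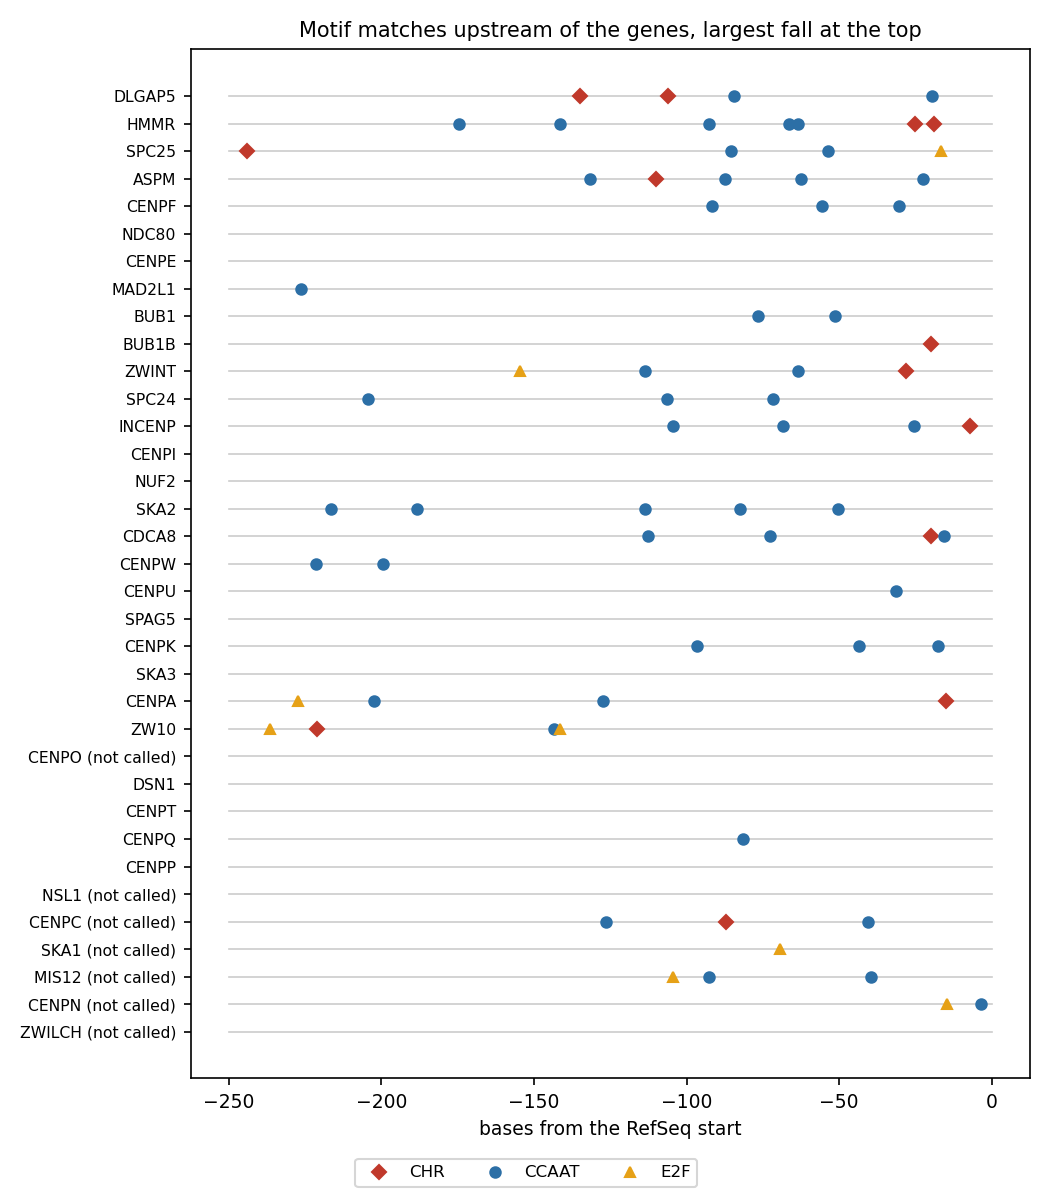
Matches of CHR (red diamonds), CCAAT (blue circles) and E2F (orange triangles) in the 250 bases before the RefSeq start of 35 genes, ordered from the largest fall at the top. The horizontal axis is the distance from the start in bases. CHR matches stand in 10 genes called lower and in 1 gene not called.

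Further genes of the same pathway, on 3 lists written beside the 44, also moved mostly downward. Of 49 such genes 48 were tested, 36 were lower and 4 higher, with a median log2 change of -0.50. Over all tested genes 25.2% were called lower and 31.0% higher, with a median log2 change of 0.06. CENPV was below the level filter. The lists were not tested against the 44. Genes of centromere deposition and protection gave 11 lower and 1 higher of 12. HJURP, the chaperone that deposits CENPA, had 5.76, 6.25 and 5.28 FPKM with metformin, against 17.7, 7.60 and 19.6 FPKM with PBS. PBS replicate 2 lay well below the other PBS libraries, and the HJURP call (limma adjusted p = 0.0196) was lost in 4 of the 6 fits that left out a library, with adjusted p of 0.0529 to 0.0624. SGO1, a protector of centromeric cohesion, fell 2.36-fold, and BOD1, a regulator of kinetochore phosphatase activity, rose 1.77-fold to 40.2 ± 8.52 FPKM, against 22.7 ± 3.58 FPKM with PBS.

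Genes of the checkpoint and its silencing gave 9 lower and 1 higher of 12. CDC20, the anaphase activator that MAD2 holds back, had 36.7, 39.4 and 41.1 FPKM with metformin, against 132, 129 and 128 FPKM with PBS. ESPL1, the protease separase, fell 4.44-fold, and PTTG1, its inhibitor securin, 3.06-fold. NDEL1, a dynein regulator, rose 1.74-fold. Spindle assembly and augmin genes gave 16 lower and 2 higher of 24. PRC1, which bundles midzone microtubules, fell 3.51-fold, NUSAP1 2.74-fold and GPSM2, which orients the spindle, 2.32-fold. HAUS6 of the augmin complex, which branches microtubules, rose 1.53-fold, with 18.6, 16.6 and 15.3 FPKM with metformin, against 10.9, 10.8 and 11.3 FPKM with PBS. RAE1, a nuclear export factor with a role at the spindle, rose 1.26-fold, a call that was lost with median-of-ratios scaling (adjusted p = 0.0550), without metformin replicate 3 (0.0553) and without PBS replicate 3 (0.0573). PRC1, GPSM2 and NDEL1 share exon bases with other tested genes on the opposite strand. GPSM2 shares 2801 of 9130 with CLCC1, which averaged 6.22 FPKM with metformin and 11.1 FPKM with PBS. PRC1 shares 406 of 5525 with PRC1-AS1, which averaged 2.95 FPKM with metformin and 11.2 FPKM with PBS. NDEL1 shares 72 of 7955 with MYH10, which averaged 2.16 FPKM with metformin and 5.32 FPKM with PBS. The folds of GPSM2 and PRC1 are therefore uncertain.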

How the data were processed

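Per the file headers the authors deposited FPKM values, 1 for each gene in a library, and per the submitters' processing notes the build was GRCh38. For the aligner, quantifier, strand setting and annotation release, the processing is not given in sources used here. Symbols came from GENCODE 29 by identifier without version, which named 57980 of 58243 genes. The spacing of low values of single-transcript genes did not give whole reads, so depth is unknown. Genes averaging 1 FPKM or more (13437) were fitted as log2(FPKM + 1) with limma 3.58.1 in R 4.3.3 (intensity trend, group only), Benjamini-Hochberg adjusted over all of them, and the fit was tested on simulated data. Folds compare group means, and log2 changes subtract PBS from metformin. Exon overlaps used BEDTools 2.31.1. Values in every library are given for the 3 largest called changes of each role class and for genes not called. From each further list the 3 largest called changes and all rises are named. PMF1 is named besides, as a MIS12 complex gene. Members and lists were chosen with earlier results of these data known. Same-numbered libraries did not deviate together (correlations -0.01 to 0.03 over tested genes), so the numbers were not taken to pair them. Alternatives were pseudocounts, filters, scalings, limma settings, a replicate block and each library left out.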

Additional observations from a re-analysis of the deposited data

How the results depend on the processing

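Of the values of the 44 genes under the alternatives, 772 kept their direction and their side of the threshold. Another 5 lost their call, 3 gained one and 5 changed direction. With the replicate block 36 genes were lower too, and it changed no call among the 44 (7139 genes called in all, against 7549 without it). Same-numbered libraries did not deviate together (correlations -0.01 to 0.03). With a pseudocount of 0.1 FPKM the median log2 changes were -1.12 (all 44), -0.63 (inner), -1.26 (outer), -0.90 (corona), -1.48 (checkpoint) and -1.98 (spindle assembly), and with 0.01 FPKM -1.13, -0.63, -1.27, -0.91, -1.49 and -2.01, since a smaller pseudocount shrinks low genes less. A filter at 5 FPKM left 4738 genes called, 2401 of them higher, 32 of the 44 lower, medians of -1.12 (those of the 44 still tested) and -0.77 (inner) and 0 higher genes on the further checkpoint list, because fewer genes were tested. Median-of-ratios scaling gave -1.12, -0.63 (inner), -1.18 (outer) and -1.83 (spindle assembly), 1 higher gene on the further spindle list and 3867 lower against 3595 higher calls in all. Quantile scaling gave -1.18 for the outer class, with 3811 lower and 3645 higher calls in all. Leaving out 1 library, the median ran from -1.08 to -0.96 (all 44), -0.69 to -0.49 (inner) and -1.19 to -0.99 (outer), with 35 to 36 lower genes, and the further spindle list had 1 to 2 higher genes. MIS12 passed the test with median-of-ratios scaling (adjusted p = 0.0458), and CENPT failed it with no filter (0.0547), as did HJURP (0.0539). The uncalled change of ZWILCH became -0.047 with median-of-ratios scaling and -0.0082 with quantile scaling, and ran from -0.078 (without metformin replicate 1) to 0.13 with 1 library left out, being -0.069 without PBS replicate 1. That of SKA1 ran from -0.28 to 0.10, with 0.10 found without metformin replicate 1. Where no cause is given, the cause was not tested. Unknown depth limits the precision of low genes such as CENPC.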
